A study of Mus musculus with 72 samples.

Results

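Glucose enters a muscle fibre in steps, and 7 genes of these steps were followed here: the transporter genes Slc2a1, Slc2a3 and Slc2a4, the traffic genes Tbc1d1 and Tbc1d4, and the hexokinase genes Hk1 and Hk2. They were chosen by gene symbol and with earlier results of these data known, so their counts beside all genes are descriptions. Each had 1 probe set, and they are 7 of the 20239 genes with a symbol on the array. The measurements were transcript levels in tibialis anterior (TA), a fast muscle, and soleus (SOL), a slow one, both taken from each of 36 male C57BL/6 mice aged 5 months, with 1 array per muscle and animal. In the mKO mice, floxed Bmal1 alleles were recombined in skeletal muscle by a Cre transgene driven by the Mlc1f promoter, and their littermates without Cre (Ctrl) served as controls, with 18 animals per genotype. Animals of both genotypes had chow and water freely, were kept at 22 °C in light from ZT0 to ZT12 and in darkness for the rest of the day, and were killed at ZT0, 4, 8, 12, 16 or 20, which gave 24 groups of 3 arrays. Because Ctrl mice carried no Cre, an effect of Cre itself and the loss of Bmal1 cannot be told apart.

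Glucose crosses the fibre membrane through transporters of the GLUT family, and hexokinases then phosphorylate it, which keeps it in the cell. GLUT4, the product of Slc2a4, waits in vesicles inside the fibre and moves to the surface after insulin or contraction. The Rab GTPase-activating proteins encoded by Tbc1d1 and Tbc1d4 hold these vesicles back until they are phosphorylated, Tbc1d4 (AS160) mainly by the insulin-activated kinase Akt and Tbc1d1 also by the energy-sensing kinase AMPK. Bmal1, encoded by Arntl, is the activating transcription factor of the circadian clock and binds E-box motifs together with its partner Clock.

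The RefSeq promoter table used here (GRCm38.p6) listed 5 of the 7 genes, with 7 starts. Shown are the 250 bases before each listed start of Tbc1d1 and Hk2, the members among these 5 whose levels differed between genotypes in both muscles, as they lie on the gene's own strand, with GC boxes (GGGCGG) and CCAAT boxes (CCAAT) on either strand in capitals.
Tbc1d1, first start, chr5:64160010-64160259, plus strand: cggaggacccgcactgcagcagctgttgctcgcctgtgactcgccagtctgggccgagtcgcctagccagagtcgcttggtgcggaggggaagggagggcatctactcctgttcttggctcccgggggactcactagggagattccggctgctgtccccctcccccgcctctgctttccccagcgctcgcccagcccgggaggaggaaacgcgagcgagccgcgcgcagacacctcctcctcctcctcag
Tbc1d1, second start, chr5:64230107-64230356, plus strand: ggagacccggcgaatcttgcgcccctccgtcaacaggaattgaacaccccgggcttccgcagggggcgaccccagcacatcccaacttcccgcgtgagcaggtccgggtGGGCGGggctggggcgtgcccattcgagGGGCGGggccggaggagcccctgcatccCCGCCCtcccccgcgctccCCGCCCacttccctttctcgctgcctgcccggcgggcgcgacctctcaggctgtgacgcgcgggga
Hk2, chr6:82774455-82774704, minus strand: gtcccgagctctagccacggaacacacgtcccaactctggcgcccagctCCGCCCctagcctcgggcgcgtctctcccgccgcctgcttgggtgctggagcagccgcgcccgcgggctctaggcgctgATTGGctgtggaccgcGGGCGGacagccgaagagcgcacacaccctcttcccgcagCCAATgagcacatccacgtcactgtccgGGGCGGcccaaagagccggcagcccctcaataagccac
The second Tbc1d1 window held 4 GC boxes and the first none, while the Hk2 window held 3 GC boxes and 2 CCAAT boxes, and no match overlapped another. A GC box occurred in 32.7% and a CCAAT box in 33.8% of the 32851 listed promoter windows of that length. The E-box CACGTG, found in 6.02% of the windows, and the D-box TTATGTAA, the motif of another group of clock-driven factors, found in 0.819%, did not occur in any of the 7 windows of these genes. The array gives 1 value per gene and does not separate transcripts from the 2 Tbc1d1 starts.

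Values are log2 signals, so that a difference of 1 is a doubling, and a gene is called where its limma p-value was under 0.05 after Benjamini-Hochberg adjustment across the 20239 genes. The labelled muscles carried their fibre markers: all 8 slow-fibre genes were lower in TA than in SOL in both genotypes, with differences between -6.61 and -3.66 log2 units, and of 9 fast-fibre genes only Myh2 was not higher in TA. The transcript of the targeted gene Arntl was not called in its mean level in either muscle. Its daily amplitude was 0.33 in mKO TA against 1.09 in Ctrl TA, and 0.59 in mKO SOL against 1.34 in Ctrl SOL. Its daily curves differed between genotypes in a joint limma test of amplitude and peak time (adjusted p = 1.7e-05 in TA and 1.33e-05 in SOL). The position of its probes with respect to the loxP sites is unstated in the labels, and its level is therefore no check of the deletion. One array stood furthest apart: on the Ctrl TA array of ZT0 replicate A, 6 liver genes averaged 11.2, against 5.77 on the other 2 arrays of its group. The highest average of these genes on a SOL array was 7.52, in Ctrl, beside a median of 5.35 over all arrays. Animal identifiers fell into 3 series, BM3 (23 animals), BM2* (7) and BM2 (6), whose meaning the labels do not give. They were treated as possible batches. At ZT20 the 3 mKO animals were of BM2 and the 3 Ctrl animals of BM3, so that genotype and series cannot be told apart in the values of that time alone, and at ZT16 all 3 mKO animals but 1 of 3 Ctrl animals were of BM3.

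Averaged over the day, 3 of the 7 genes were lower in mKO TA and 2 of them were also lower in mKO SOL. Slc2a3, Tbc1d1 and Hk2 fell in TA, where 14.8% of all genes were called and 8.06% were called lower. Tbc1d1 and Hk2 fell in SOL, where 7.1% were called and 3.54% were called lower. No member was called higher in either muscle, and the members' median difference was -0.08 in TA and -0.07 in SOL, beside 0.02 and 0.00 over all genes. The muscle transporter gene Slc2a4 itself was not called in either muscle.

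**Figure D1:**
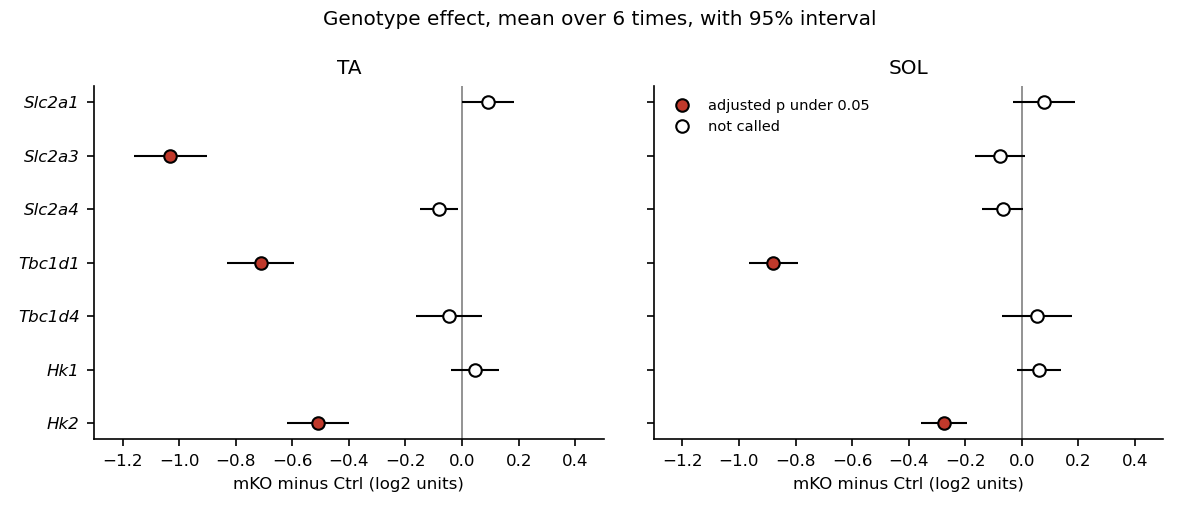
Difference mKO minus Ctrl of each gene in TA (left) and SOL (right), in log2 units, averaged over 6 times, with 95% intervals from limma. Filled points, with adjusted p under 0.05, are Slc2a3, Tbc1d1 and Hk2 in TA and Tbc1d1 and Hk2 in SOL.

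Among the transporters, Slc2a3, which encodes the high-affinity transporter GLUT3 best known from neurons, had the strongest fall of the 7 in TA. Its level ran from 5.99 over a median of 6.19 to 6.51 on the 18 mKO TA arrays, against 6.67, 7.30 and 7.68 on the 18 Ctrl TA arrays. Every mKO TA array thus lay below every Ctrl TA array, a separation in one direction or the other that 0.82% of all genes showed in TA. The mean difference was -1.03 ± 0.064 (SE, n = 18 animals per genotype), or 0.489-fold, with an adjusted p of 2.15e-13. In SOL the arrays overlapped, with 5.94, 6.09 and 6.30 in mKO and 6.04, 6.18 and 6.43 in Ctrl, and the difference of -0.08 ± 0.043 was not called (adjusted p = 0.389, 95% interval -0.17 to 0.01). The difference between TA and SOL in this change was -0.95 ± 0.079 (adjusted p = 7.7e-10), in a test that called 2.71% of all genes and no other member. The table holds no detection calls, so it is not known how far mKO TA and both SOL groups stand above background. Should they lie at it, the fold in TA would understate the fall, and a fall in SOL could not be seen, nor the change compared between the muscles.

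The mean Slc2a3 level was 6.21 ± 0.14 in mKO TA and 7.25 ± 0.24 in Ctrl TA, and 6.11 ± 0.12 in mKO SOL and 6.19 ± 0.11 in Ctrl SOL (SD over animals of all times, n = 18). Ctrl TA was highest, and the other 3 groups followed within each other's spread. Slc2a3 was higher in TA than in SOL in 12 of 18 mKO animals and in 18 of 18 Ctrl animals. The mean within-animal difference TA minus SOL was 0.10 in mKO, which was not called (adjusted p = 0.135, 95% interval -0.01 to 0.22), and 1.05 in Ctrl (adjusted p = 2.43e-16). Without the mKO animal of ZT8 replicate B the difference in mKO was 0.13 and called (adjusted p = 0.0493).

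At single times, the fall of Slc2a3 in TA passed the threshold at 6 of 6 times, ZT20 with its split of series included, which 0.716% of all genes reached in TA. The smallest change, at ZT16, was -0.78: the 3 mKO arrays read 6.29, 6.13 and 6.28 and the 3 Ctrl arrays 7.04, 7.33 and 6.67 (adjusted p = 0.00278). The largest, at ZT4, was -1.27, with 6.23, 6.06 and 6.18 in mKO and 7.68, 7.28 and 7.31 in Ctrl (adjusted p = 4.48e-06). The arrays did not overlap at any of the 6 times, which 1.54% of all genes showed in TA, and the lowest Ctrl arrays, at 6.67 and 6.72, were the replicates C of ZT16 and ZT12. Within the BM3 animals the difference in TA was -1.07, and within the BM2 and BM2* animals -0.97, both called. These fits had 1 term for genotype and 1 for each time, and their differences rest on times that held both genotypes. Those were ZT0, 4, 8 and 16 for BM3 and ZT8 and 12 for BM2 and BM2*. Markers of other cells that could carry Slc2a3 were called as follows in TA: 0 of 6 macrophage genes, 0 of 6 nerve and Schwann cell genes, and 1 of 9 lymphocyte, granulocyte and platelet genes, Gp9, which was higher by 0.15. The log2 summed level of the macrophage list ran from 9.50 to 10.6 in mKO TA and from 9.70 to 11.1 in Ctrl TA, and that of the nerve list from 10.3 to 10.9 in mKO TA and from 10.5 to 10.9 in Ctrl TA. The values of 5 of the 6 macrophage genes were below 0 in TA, with a list median of -0.13 beside 0.02 over all genes. Their part in the result was not tested. In bulk muscle, fewer cells of a type and less RNA per cell cannot be told apart.

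Slc2a4, the insulin-responsive transporter gene, stayed within 0.1 log2 units between genotypes in the mean. In TA it ran over 11.56, 11.74 and 11.87 (lowest, median, highest) in mKO and 11.59, 11.84 and 11.94 in Ctrl. In SOL it ran over 11.51, 11.62 and 11.80 in mKO and 11.55, 11.67 and 11.88 in Ctrl. The groups overlapped in both muscles. Ordered by mean, from Ctrl TA over mKO TA and Ctrl SOL down to mKO SOL, each step lay within the spread. The differences were -0.08 ± 0.033 in TA (adjusted p = 0.108, 95% interval -0.15 to -0.01) and -0.07 ± 0.035 in SOL (adjusted p = 0.348, 95% interval -0.14 to 0.00), so a fall of more than 0.15 log2 units lay outside both intervals. With arrays weighted by their quality, the difference in TA was -0.11 and called (adjusted p = 0.00847).

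Slc2a1, which encodes GLUT1, the transporter of basal uptake that is also abundant in endothelium, was the transporter with values slightly higher in mKO. Its levels were 8.23, 8.66 and 8.997 in mKO TA and 8.28, 8.62 and 8.77 in Ctrl TA, and 8.73, 9.07 and 9.49 in mKO SOL and 8.72, 9.0 and 9.30 in Ctrl SOL. The groups overlapped, and the differences of 0.09 ± 0.045 in TA (adjusted p = 0.197, 95% interval 0.00 to 0.18) and 0.08 ± 0.054 in SOL (adjusted p = 0.534, 95% interval -0.03 to 0.19) were not called. The order of the groups, mKO SOL, Ctrl SOL, mKO TA and Ctrl TA, had steps between genotypes that lay within the spread. Of 9 endothelial genes, 1 was called lower in TA (Vwf, -0.10) and 1 higher in SOL (Kdr, 0.22). In SOL 7 of the 9 values were above 0 and 2 below, with a list median of 0.046 beside 0.001 over all genes. In TA 5 were above 0 and 4 below, with a median of 0.02 beside 0.02. The part of endothelium in the Slc2a1 values was not tested.

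**Figure D2:**
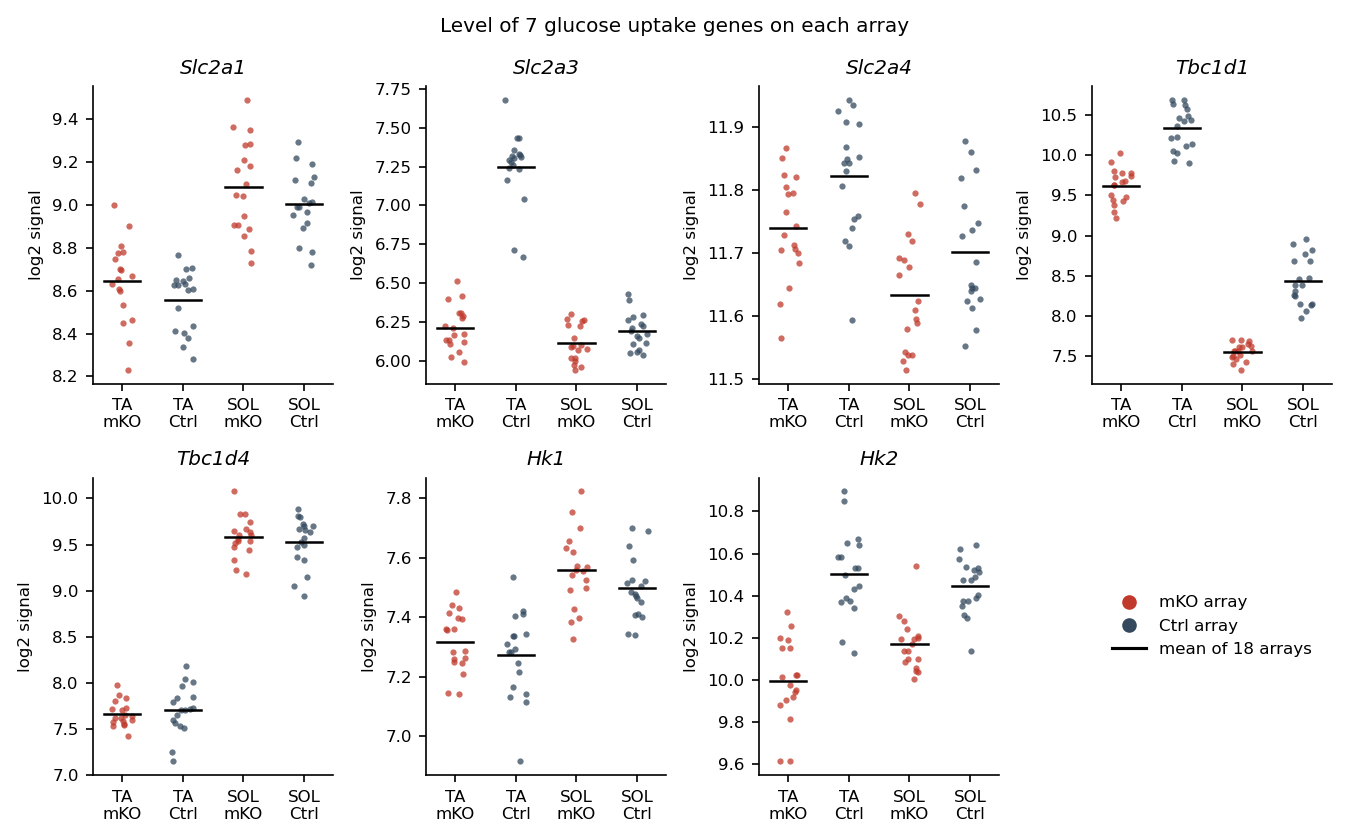
Log2 signal of the 7 genes on each of the 72 arrays, with the scale set separately for each gene, in TA and SOL of mKO (red) and Ctrl (dark). Lines are means of 18 arrays. Slc2a3 in TA and Tbc1d1 in SOL are the pairs of groups whose arrays do not overlap between genotypes.

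Tbc1d1 fell in both muscles. In TA its levels were 9.22, 9.65 and 10.03 in mKO (lowest, median, highest of 18 arrays) and 9.90, 10.40 and 10.69 in Ctrl, and the groups overlapped slightly. In SOL they were 7.33, 7.57 and 7.71 in mKO and 7.98, 8.39 and 8.96 in Ctrl. No mKO SOL array reached the lowest Ctrl SOL array, a separation shown by 0.188% of all genes in SOL. The difference was -0.71 ± 0.058 in TA (0.61-fold, adjusted p = 8.98e-11) and -0.88 ± 0.043 in SOL (0.544-fold, adjusted p = 1.52e-15), where only 4 of the 20239 genes had a smaller p. The sizes in the 2 muscles differed by 0.17 ± 0.080, which was not called (adjusted p = 0.405, 95% interval 0.00 to 0.33).

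At single times, Tbc1d1 was called lower in mKO SOL at 6 of 6 times (0.153% of all genes reached this in SOL) and in mKO TA at 5 of 6 times (0.988% reached at least 5 in TA). The exception in TA was ZT0, with 9.92, 9.81 and 9.68 on the mKO arrays and 10.14, 10.48 and 10.12 on the Ctrl arrays, which did not overlap either (difference -0.45, adjusted p = 0.129). The largest difference was at ZT16 in both muscles: -0.90 in TA, with 9.51, 9.63 and 9.73 in mKO and 10.37, 10.64 and 10.57 in Ctrl, and -1.29 in SOL, with 7.69, 7.50 and 7.56 in mKO and 8.96, 8.77 and 8.89 in Ctrl. mKO and Ctrl arrays were apart at all 6 times in both muscles, as were those of 1.54% of all genes in TA and 0.603% in SOL. Within BM3 animals the difference was -0.59 in TA and -0.79 in SOL, and within BM2 and BM2* animals -0.80 in TA and -0.85 in SOL, all 4 called. As for Slc2a3, these values rest on different times of day and not on the mean over 6 times. Fibre markers moved in SOL too: 4 of 8 slow-fibre genes were called lower (Myh7, Tnnt1, Tnnc1 and Tpm3, by 0.11 to 0.20), and of 9 fast-fibre genes Actn3 was lower by 0.80 and Mylpf higher by 0.42. The values of all 8 slow-fibre genes were below 0 in SOL, with a list median of -0.072 beside 0.001 over all genes. Of the 9 fast-fibre values in SOL, 3 were below 0 and 6 above, with a list median of 0.025. In TA, Myl3 of the slow list (0.44) and Mylpf of the fast list (0.27) were higher and none was lower. The log2 summed level of the slow list ran from 16.0 to 16.3 in mKO SOL and from 16.1 to 16.3 in Ctrl SOL, and that of the fast list from 15.8 to 16.1 in mKO SOL and from 15.8 to 16.1 in Ctrl SOL. Their part in the Tbc1d1 result was not tested.

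Its relative Tbc1d4 was not called in either muscle. Its levels were 7.42, 7.63 and 7.97 in mKO TA and 7.15, 7.71 and 8.18 in Ctrl TA, and 9.18, 9.58 and 10.08 in mKO SOL and 8.95, 9.61 and 9.89 in Ctrl SOL. Over all times together the genotypes overlapped in both muscles, and the differences were -0.05 ± 0.057 in TA (adjusted p = 0.661, 95% interval -0.16 to 0.07) and 0.05 ± 0.060 in SOL (adjusted p = 0.762, 95% interval -0.07 to 0.18). The largest change at a single time in TA was -0.37 at ZT12, with a mean of 7.54 in mKO and 7.91 in Ctrl, and was not called (adjusted p = 0.218).

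The hexokinase that is typical of insulin-sensitive muscle, Hk2, fell in both muscles, and Hk1, the widely expressed form, was called in neither. Hk2 levels were 9.61, 9.996 and 10.32 in mKO TA and 10.13, 10.52 and 10.90 in Ctrl TA, a difference of -0.51 ± 0.054 (0.703-fold, adjusted p = 2.05e-08). In SOL they were 10.01, 10.16 and 10.54 in mKO and 10.14, 10.48 and 10.64 in Ctrl, a difference of -0.28 ± 0.040 (0.826-fold, adjusted p = 7.94e-06). The ranges overlapped in both muscles. Means were 9.998 ± 0.20 in mKO TA and 10.51 ± 0.20 in Ctrl TA, and 10.17 ± 0.125 in mKO SOL and 10.45 ± 0.13 in Ctrl SOL (SD, n = 18). From the highest, Ctrl TA, over Ctrl SOL and mKO SOL to mKO TA, neighbouring groups lay within each other's range.

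At single times Hk2 was called lower in TA at ZT8, ZT12 and ZT16 (1.77% of all genes were called at 3 or more times in TA), and in SOL at ZT0 only. In TA the changes at these times were -0.743, -0.678 and -0.665, against -0.23 at ZT0, -0.31 at ZT4 and -0.42 at ZT20. At ZT8 the TA arrays read 9.62, 9.91 and 9.88 in mKO and 10.37, 10.67 and 10.59 in Ctrl. At ZT0 the SOL arrays read 10.19, 10.01 and 10.06 in mKO and 10.58, 10.38 and 10.54 in Ctrl (adjusted p = 0.0402). Arrays of the genotypes were apart at 4 of 6 times in each muscle, and 5.02% of all genes were apart at 4 or more times in TA and 2.53% in SOL. Within BM3 animals the difference was -0.45 in TA and -0.30 in SOL, both called, and within BM2 and BM2* animals -0.69 in TA, called, and -0.29 in SOL, not called (adjusted p = 0.324). The BM2 and BM2* values rest on ZT8 and ZT12, so the sizes are not compared like for like with those of BM3.

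The difference between TA and SOL in the Hk2 change was -0.23 ± 0.067, which missed the threshold (adjusted p = 0.0599). It passed in 8 of the 36 fits that left out 1 animal, with -0.25 to -0.27 and adjusted p from 0.0116 to 0.0499. These animals were mKO ZT0 C, ZT4 C, ZT8 C, ZT12 C and ZT20 B, and Ctrl ZT0 A, ZT12 B and ZT20 A. It also passed with array weights (-0.315, adjusted p = 0.000924), among genes above the median level (-0.23, adjusted p = 0.0257) and without pairing the muscles of an animal (-0.23, adjusted p = 0.0394). Without Ctrl ZT0 A, the animal whose TA array had the highest level of liver genes, the value was -0.25 (adjusted p = 0.0308). The genotype differences themselves moved little without that animal: in TA they were -1.03 for Slc2a3, -0.72 for Tbc1d1 and -0.52 for Hk2, and in SOL -0.88 for Tbc1d1 and -0.27 for Hk2. Hk1 levels were 7.14, 7.32 and 7.48 in mKO TA and 6.92, 7.29 and 7.54 in Ctrl TA, and 7.33, 7.56 and 7.82 in mKO SOL and 7.34, 7.48 and 7.70 in Ctrl SOL. The Hk1 differences were 0.05 ± 0.041 in TA (adjusted p = 0.503, 95% interval -0.04 to 0.13) and 0.06 ± 0.038 in SOL (adjusted p = 0.478, 95% interval -0.02 to 0.14).

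Between muscles, the Tbc1d1 and Tbc1d4 levels ran in opposite directions in every animal of both genotypes. Compared within animals, TA and SOL differed in 48.2% of all genes in mKO and 42.9% in Ctrl, and in 6 of the 7 members in each genotype. Tbc1d1 was higher in TA by 2.06 in mKO (range over animals 1.65 to 2.59) and 1.90 in Ctrl (1.40 to 2.46). Tbc1d4 differed by -1.92 in mKO (-2.37 to -1.47) and -1.82 in Ctrl (-2.20 to -1.40). Slc2a1 was lower in TA in 18 of 18 animals of each genotype, by a mean of -0.44 in mKO and -0.45 in Ctrl. Hk1 was lower in TA in 16 of 18 mKO and 17 of 18 Ctrl animals (means -0.24 and -0.22), and Slc2a4 higher in 15 of 18 mKO and 16 of 18 Ctrl animals (means 0.11 and 0.12).

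Slc2a3 and Hk2 were called between muscles in one genotype each. The Slc2a3 difference, given above, was called in Ctrl. Hk2 was lower in TA than in SOL in mKO, by -0.17 (13 of 18 animals, adjusted p = 0.00331), and in Ctrl the difference was 0.06 (higher in 11 of 18 animals, adjusted p = 0.337, 95% interval -0.04 to 0.16). The test between the genotypes of these muscle differences is the one given for each gene above, called for Slc2a3 and not for Hk2. With the identifier series as terms, Hk2 in mKO (-0.16, adjusted p = 0.0536) and Slc2a4 in Ctrl (0.13, adjusted p = 0.0653) were not called. With array weights the Hk2 difference in Ctrl was 0.105 and called too (adjusted p = 0.0396).

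**Figure D3:**
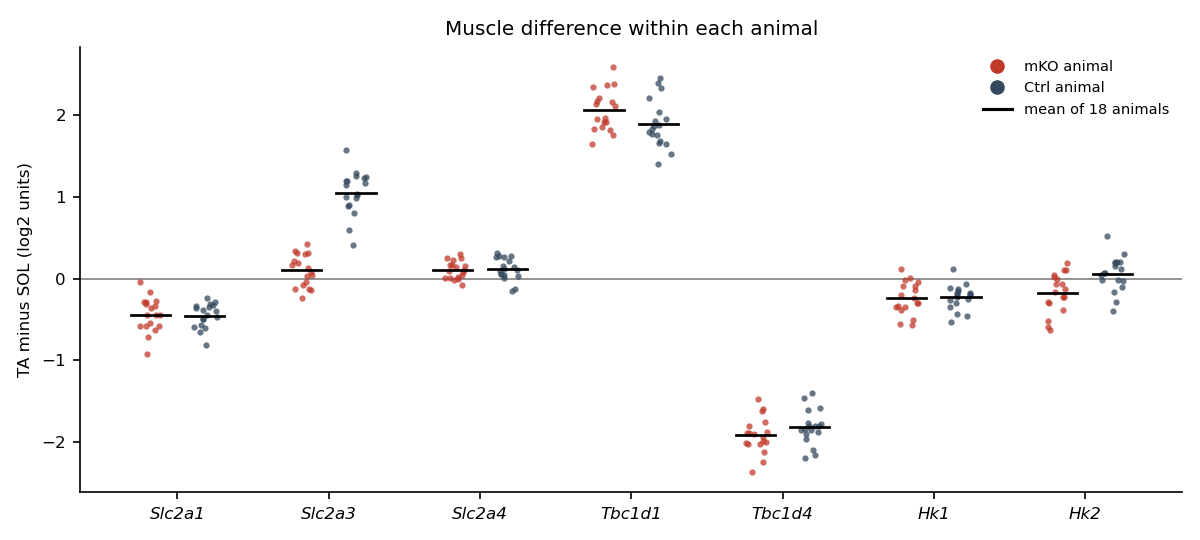
Within-animal difference TA minus SOL in log2 units for each gene in 18 mKO animals (red, left of each pair) and 18 Ctrl animals (dark). Tbc1d1 lies near 2 and Tbc1d4 near -1.9 in both genotypes, while Slc2a3 averages 0.10 in mKO and 1.05 in Ctrl.

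A daily rhythm was tested with a cosine curve of 24 h in each muscle and genotype, and its amplitude is the distance of the peak above the mean. In SOL, Tbc1d1 had an amplitude of 0.05 in mKO (adjusted p = 0.748) and of 0.37 in Ctrl (adjusted p = 3.63e-07), with a fitted peak at ZT17.0 in Ctrl. The 6 time means of mKO SOL stayed between 7.44 and 7.62, and those of Ctrl SOL were 8.31 at ZT0, 8.13 at ZT4, 8.16 at ZT8, 8.49 at ZT12, 8.88 at ZT16 and 8.66 at ZT20. The difference in amplitude, mKO minus Ctrl, was -0.33 and was not tested on its own. In a joint test of the cosine and sine terms, which covers amplitude and peak time, the curves differed between genotypes (adjusted p = 0.0249). This call was shared by 0.0395% of all genes, 8 in number, in SOL. It was lost when 1 of 5 animals was left out (mKO ZT4 B, ZT16 B or ZT16 C, Ctrl ZT4 B or ZT16 C, adjusted p from 0.0522 to 0.0681). The call was also lost with the identifier series as terms (adjusted p = 0.0872) and in an F test over the 6 times (adjusted p = 0.292).

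Tbc1d4 was the other member with a called rhythm in SOL of Ctrl, with its peak in the light hours. Its amplitude was 0.16 in mKO SOL (adjusted p = 0.207), with a fitted peak at ZT6.27, and 0.29 in Ctrl SOL (adjusted p = 0.0051), with a fitted peak at ZT6.75. The curves of the genotypes were not called different (adjusted p = 0.971). Rhythms were called for 5.68% of all genes in mKO SOL, where no member was called, and for 6.05% in Ctrl SOL. Without the mKO animal of ZT8 replicate A, Slc2a1 was called in mKO SOL, with an amplitude of 0.22 (adjusted p = 0.0154) in place of 0.18 (adjusted p = 0.0874).

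In TA, Tbc1d1 was called rhythmic in both genotypes. The amplitude was 0.24 in mKO, peaking at ZT21.9 (adjusted p = 0.039), and 0.25 in Ctrl, peaking at ZT18.6 (adjusted p = 0.0194). Slc2a1 was called in mKO TA (0.20, peak at ZT20.6, adjusted p = 0.025) and not in Ctrl TA (0.12, adjusted p = 0.348). Rhythms were called for 1.76% of all genes in mKO TA and 2.7% in Ctrl TA. No member's curve differed between genotypes in TA, where 0.104% of all genes were called, and the member with the smallest p was Hk2, with amplitudes of 0.14 in mKO and 0.19 in Ctrl and fitted peaks at ZT21.2 in mKO and ZT14.2 in Ctrl (adjusted p = 0.958).

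These TA calls changed when single animals were left out. The Tbc1d1 call in mKO was lost without any 1 of 14 of the 18 mKO animals (adjusted p from 0.0504 to 0.105), the other 4 being ZT0 C, ZT4 A, ZT4 C and ZT8 B. The Tbc1d1 call in Ctrl was lost without ZT4 A, ZT8 A, ZT20 B or ZT20 C (adjusted p from 0.0563 to 0.0665), and the Slc2a1 call in mKO without ZT8 A, ZT8 C or ZT20 B (adjusted p from 0.0546 to 0.0937). An F test over the 6 times called no member in TA of either genotype. With the identifier series as terms both mKO calls were lost (adjusted p = 0.118 for Tbc1d1 and 0.125 for Slc2a1), and 1 member stayed called in Ctrl. Centring arrays on their medians also lost both mKO calls (adjusted p = 0.0744 and 0.0684). Series and time overlap: all mKO animals of ZT20 were of BM2, and no animal of ZT12 was of BM3. A rhythm and a series difference are therefore not fully told apart.

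**Figure D4:**
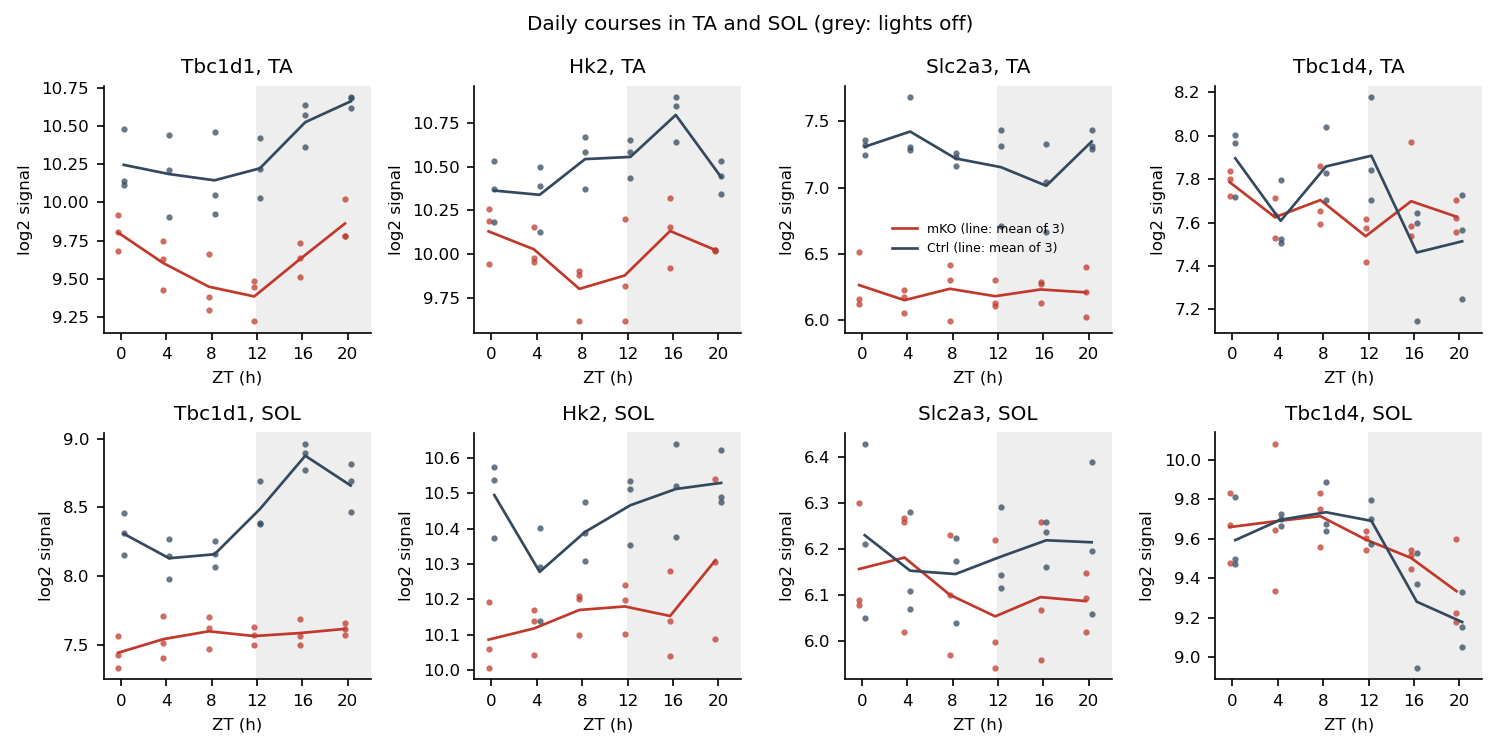
Log2 signal by Zeitgeber time (h) of Tbc1d1, Hk2, Slc2a3 and Tbc1d4 in TA (top) and SOL (bottom). Points are arrays, lines join the means of 3 arrays (mKO red, Ctrl dark), grey marks darkness, and each panel has its own scale. The Tbc1d1 means of mKO SOL stay between 7.44 and 7.62, while the mean of Ctrl SOL peaks at 8.88 at ZT16.

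Around the 7 genes, 77 further genes of glucose uptake in 7 lists were measured. In TA, 5 were called higher and 24 lower in mKO, 37.7% of them beside 14.8% of all genes, and in SOL 7 were called higher and 10 lower, 22.1% beside 7.1%. The lists were chosen with earlier results of these data known, so these shares are descriptions and no test of the lists. The shares are also not matched for expression level: 45 of the 46 list calls were of genes above the median level. Tested alone, the genes above the median level gave 3083 calls in TA and 1588 in SOL, against 3000 and 1436 over all genes. These calls came from fewer genes, so the share called among them was higher than 14.8% in TA and 7.1% in SOL. The shares over all genes are thus too low a background for genes of that level. How much of the excess in the lists goes with level was not tested. The median difference of the 77 genes was -0.05 in TA and -0.02 in SOL, beside 0.02 and 0.00 over all genes. All sizes stayed under 0.5 log2 units. The values below come from the same fits as those of the 7 genes. Of the 46 calls, 6 were lost in some alternative on all animals or without 1 animal, as given with the genes. Within BM3 animals alone 19 were not made, and within BM2 and BM2* animals 43, in fits of fewer animals and times.

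The kinase AMPK, which phosphorylates Tbc1d1, had several subunit genes called lower. In TA 6 of 10 genes of AMPK and its kinases were lower and none was higher (median -0.16): the γ subunit genes Prkag2 by 0.48 (adjusted p = 1.18e-07), Prkag3 by 0.22 and Prkag1 by 0.13, the β subunit gene Prkab2 by 0.26, the catalytic subunit gene Prkaa2 by 0.20, and Cab39, whose product activates the upstream kinase LKB1, by 0.29 (adjusted p = 1.22e-07). In SOL 3 were lower, Prkaa2 by 0.20, Cab39 by 0.16 and Prkag3 by 0.15, and the other catalytic subunit gene, Prkaa1, was higher by 0.09 (median -0.06). The Prkaa1 call was lost in 18 of 36 fits that left out 1 animal (adjusted p up to 0.0729) and with arrays centred on their medians (adjusted p = 0.0886), and the Prkag3 call in SOL with the identifier series as terms (adjusted p = 0.0551). Prkag2 fell more in TA than in SOL (difference -0.45 ± 0.070, adjusted p = 7.42e-05).

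Genes of the insulin signal to Tbc1d4 were called in both directions. In TA 2 of 11 were higher and 2 lower: Pik3ca, a catalytic subunit of PI 3-kinase, rose by 0.48 (adjusted p = 1.31e-11) and Akt2, the main insulin-responsive Akt of muscle, by 0.20, while Akt1 fell by 0.41 (adjusted p = 1.43e-08) and the regulatory subunit gene Pik3r1 by 0.18. In SOL 4 were higher and 2 lower: Pik3ca rose by 0.40, the insulin receptor substrate gene Irs1 by 0.35, the kinase gene Pdpk1 by 0.14 and the insulin receptor gene Insr by 0.12, while Akt1 fell by 0.24 and Pik3r1 by 0.18. The Pik3r1 call in SOL was lost in 15 of 36 fits that left out 1 animal (adjusted p up to 0.0642) and with the identifier series as terms (-0.165, adjusted p = 0.0801), and its value within BM3 animals was -0.09 (adjusted p = 0.634). Irs1 differed between the muscles in its change (-0.23, adjusted p = 0.0388).

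Downstream of the Tbc1d proteins, genes of vesicle traffic were called mostly in TA. Of 15 traffic genes, 1 was higher and 6 lower in TA: Aspscr1, whose product TUG retains GLUT4 vesicles, rose by 0.16, and Myo5a, a vesicle motor, fell by 0.22, Stxbp3, a regulator of membrane fusion, by 0.17, Lrp1, a component of GLUT4 vesicles, by 0.14, Myo1c, another motor, by 0.13, and the fusion protein genes Vamp2 and Stx4a by 0.12 each. The Myo1c call was lost with the identifier series as terms (adjusted p = 0.061). In SOL Aspscr1 rose by 0.14 and no gene of the list was called lower. Of 6 Rab genes, Rab10 was lower in TA by 0.13, and none was called in SOL. Whether the traffic genes changed differently in the 2 muscles was tested for each gene, and none was called (adjusted p from 0.333 to 0.957).

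Of 11 other transporter genes, Slc2a12, which encodes GLUT12, fell by 0.27 in TA and 0.22 in SOL, and Slc2a6 was higher by 0.13 in TA. The Slc2a6 call was lost in 6 of 36 fits that left out 1 animal (adjusted p up to 0.056), with the identifier series as terms (adjusted p = 0.065) and with both muscles in 1 fit (adjusted p = 0.0521). Among 9 genes of glucose 6-phosphate entry and exit, Slc37a4, which encodes the transporter of glucose 6-phosphate into the endoplasmic reticulum, fell by 0.31 in TA and 0.43 in SOL, and Pgm1, the enzyme between glucose 1-phosphate and glucose 6-phosphate, by 0.22 in TA and 0.25 in SOL. The other 7 were not called in either muscle.

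Of 15 regulators of the Slc2a4 gene and of glucose uptake, 1 was higher and 6 lower in TA, and 1 was higher and 2 lower in SOL. Thra, a thyroid hormone receptor gene, rose in both (0.39 in TA, adjusted p = 1.11e-10, and 0.29 in SOL). The muscle transcription factor gene Mef2c fell by 0.15 in TA and 0.19 in SOL, and the histone deacetylase gene Hdac4 by 0.24 in TA and 0.27 in SOL. In TA the coactivator gene Ppargc1a fell by 0.29 (adjusted p = 2.47e-05), Txnip, an inhibitor of glucose uptake, by 0.17, Mef2a by 0.16 and the glucose-responsive factor gene Mlxipl by 0.16. The Txnip call was lost with both muscles in 1 fit (adjusted p = 0.192). The changes of Mef2a (-0.14, adjusted p = 0.0312) and Mlxipl (-0.19, adjusted p = 0.0467) differed between TA and SOL.

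**Figure D5:**
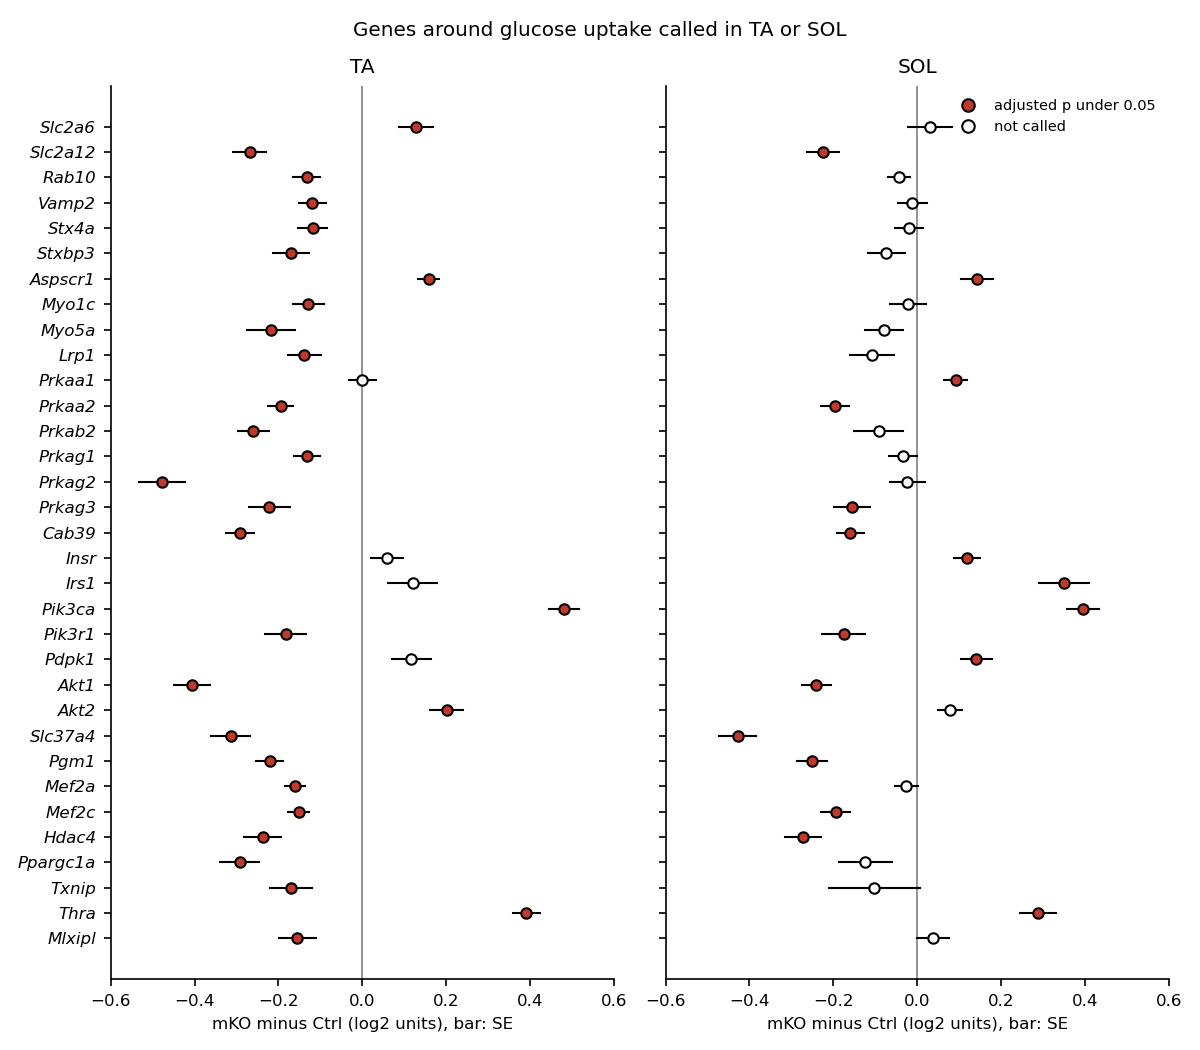
Difference mKO minus Ctrl (log2 units, bars are SE, n = 18 animals per genotype) in TA (left) and SOL (right) of the genes of the 7 lists that were called in at least 1 muscle. Filled points have an adjusted p under 0.05; in TA 5 lie to the right of 0 and 24 to the left.

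Over the 24 group means, centred within each muscle, the members fell into patterns that share their arrays and their genotype difference, so the correlations are descriptions. Among the members, Tbc1d1 ran closest to Hk2 (r = 0.84), Slc2a4 to Hk2 (r = 0.82) and Slc2a3 to Hk2 (r = 0.73), whereas Tbc1d1 and Tbc1d4 gave r = -0.28. Likeness was then searched over all genes, with provisional names, such as those of the Gm and Rik kinds, left out. Those most like Tbc1d1 were Asb15, a substrate adaptor gene of ubiquitin ligases (r = 0.96), the fast-fibre transcription factor gene Tbx15 (0.93) and Hivep2 (0.92). Asb15 fell by 0.69 in TA and 0.84 in SOL. Those most like Slc2a3 were Car3, a carbonic anhydrase gene (0.97), Nkain1, whose product binds the sodium pump (0.96), and the monoamine oxidase gene Maob (0.96), which changed by -1.71, -1.57 and -1.58 in TA, and by -0.05, -0.51 and -0.39 in SOL, where Car3 was not called. Those most like Hk2 were Mapre2, a microtubule end-binding protein gene (0.95), Ralgapa2, a subunit of a Ral GTPase-activating complex (0.92), and the phosphoinositide phosphatase gene Inpp4a (0.91).

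The other members had weaker neighbours. Slc2a4 was nearest to Nupr1 (0.83), Inpp4a (0.83) and Hk2. Slc2a1 was nearest to Dusp27 (0.87), the clock repressor gene Cry1 (0.85) and Fastkd1 (0.85), and Cry1 was higher in mKO by 0.18 in TA and 0.18 in SOL. Tbc1d4 was nearest to Zfp763, Pop4 and Jade1 (0.79, 0.78 and 0.77) and Hk1 to Irak1, Ube2z and the E-box-binding factor gene Usf2 (0.79, 0.79 and 0.79), none of which was called in either muscle.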

How the data were processed

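RNA of TA and SOL from 36 mice was hybridised to 72 whole-transcript arrays. The log2 values were used as deposited: per the submitters' processing notes they were made with RMA, whose version is not stated, and probe sets stand for Entrez genes. Of 21225 probe sets, 20239 had 1 gene symbol and were tested, and 986 without a symbol stayed out. Muscle, genotype, time, animal and replicate letter came from the labels. Each member had 1 probe set, and precision is limited by the number of arrays.

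The limma package (3.58.1, R 4.3.3; lmFit, eBayes) was fitted to the 36 arrays of a muscle, with 1 coefficient per genotype and time, and gave mKO minus Ctrl averaged over 6 times or at single times. Muscle differences and their interaction with genotype were tested on TA minus SOL within animals, and rhythms with a cosine and a sine of 24 h. A difference in rhythm between genotypes was tested jointly on both terms. P-values were adjusted by the Benjamini-Hochberg method over all genes of a test, at a threshold of 0.05. The tests were run first on simulated data.

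SOL and TA arrays of 1 animal are paired by the labels. The median correlation of their deviations from group means was 0.05, and 11 of 36 pairs were over 0.1.

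Named genes are the 7 members, Arntl, every called gene of 7 pathway lists (84 genes, 77 measured), and the 3 genes most correlated with each member over the 24 group means. Genes with provisional names, such as those of the Gm and Rik kinds, were left out of that search. Marker genes are named beside the results they move with. Listed genes without a row in the table were not analysed here. The members and lists were chosen with earlier results of these data known. Promoter sequences and motif shares came from RefSeq. Alternatives changed the scaling, the array weights, the genes tested, the model of time, the animals and the treatment of identifier series and replicate letters.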

Additional observations from a re-analysis of the deposited data

Results flagged for a closer look

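The genotype difference depended on the muscle for 1 of the 7 members, 4 of the 77 list genes and 1 cell type marker. This was tested by the interaction of genotype and muscle within animals (limma, adjusted over 20239 genes, n = 18 animals per genotype), which called 2.71% of all genes. Markers were looked at only where they were called in a muscle, a choice that favours a difference between muscles. The change of Slc2a3 in TA minus that in SOL was -0.952 (adjusted p = 7.7e-10), with the limit on background given in the report, and that of Prkag2 was -0.454 (adjusted p = 7.42e-05). For Irs1 it was -0.231 (adjusted p = 0.0388), with a called rise in SOL. For Mef2a it was -0.135 (adjusted p = 0.0312) and for Mlxipl -0.194 (adjusted p = 0.0467), both called lower in TA. For Mbp, a myelin gene of the nerve list that was called lower in SOL, it was 0.288 (adjusted p = 0.00174). Genes named for their likeness to a member, such as Car3, were chosen by patterns that include both muscles and were not tested.

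For Tbc1d1 in SOL the difference in amplitude, mKO minus Ctrl, was -0.326, a value not tested on its own. Its daily curve differed between genotypes in a joint limma test of amplitude and peak time (adjusted p = 0.0249), a call that 0.0395% of all genes shared. It was lost in 5 of 36 fits that left out 1 animal, with the identifier series as terms (adjusted p = 0.0872) and in an F test over the 6 times (adjusted p = 0.292).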

How the results depend on the processing

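Leaving out each animal in turn kept 2 members called in SOL and 3 in TA, with 1316 to 1479 genes called in SOL and 2672 to 3523 in TA, and gave 1 to 2 members called in the interaction of genotype and muscle, 0 to 1 rhythmic members in mKO SOL, 0 to 2 in mKO TA, 0 to 1 in Ctrl TA and 0 to 1 members whose curve differed in SOL. Signs of uncalled interactions turned among these fits, with ranges of -0.0108 to 0.0453 for Slc2a1, -0.0265 to 0.00385 for Slc2a4 and -0.0329 to 0.00414 for Hk1.

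With array weights, 5388 genes were called in TA (3000 in the report) and 2 members in the interaction, and Tbc1d4 in SOL (-0.0247) and the Slc2a1 interaction (-0.0323) turned sign. Within BM3 animals 579 genes were called in SOL and 1882 in TA, and Hk1 in TA was -0.00872. Within BM2 and BM2* animals 167 genes were called in SOL and 377 in TA, 1 member was called in SOL, and Tbc1d4 in SOL (-0.0523) and Slc2a1 in TA (-0.0415) turned sign. These fits within series held fewer animals and fewer times with both genotypes. The cause of the shifts under array weights was not tested. With identifier series as terms, 0 members were rhythmic in mKO TA and 0 differed in rhythm in SOL. With arrays centred on their medians, 0 were rhythmic in mKO TA. The F test over 6 times called 0 in mKO TA, 0 in Ctrl TA and 0 for the difference in SOL. Among genes above the median level, which leave out Slc2a3, 1 member was rhythmic in mKO SOL, and 8 member-by-time calls were made in TA in place of 14. The cause of the changed rhythm calls was not tested.

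The replicate letters shared by mKO and Ctrl were not taken as pairs: deviations of same-letter arrays correlated with a median r of 0.153 (-0.28 to 0.322), over 0.1 in 21 of 36 pairs and not in all. With the letter as a replicate block, 1536 genes were called in SOL and 3156 in TA, with 2 and 3 members. With no replicate block for the animal, 2 members were called in the interaction, Hk2 being the added one.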
